A study of Mus musculus with 2 samples.

Results

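The 7 genes described here are mouse liver genes that are held down by pulses of growth hormone and are more active where the hormone is secreted more evenly. They are the cytochrome P450 genes Cyp2b9, Cyp2b13, Cyp2a4 and Cyp17a1, the transporter genes Slc22a27 and Abcd2, and the membrane glycoprotein gene Prom1. They were chosen by their reputation as genes of this kind and by their measured difference between the pools, with that difference known, so their own differences are a description and carry no test. All 7 had exactly 1 row with a single gene symbol, among 1750 named genes in the table.

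The liver RNA came from C57BL/6J mice, an inbred laboratory strain, aged 6 to 10 weeks. Every mouse underwent surgery to catheterize a jugular vein, was kept in a metabolic cage and was given saline through the line at first. The saline group then stayed on saline and kept its food, while the other group was switched to parenteral nutrition (PN, feeding through a vein) and had its food taken away, so the infusion and the loss of food cannot be told apart. Livers were taken after 8 days of either infusion, RNA of 3 mice was pooled in each group, and 1 array was run per pool. With 1 pool per group there is no replicate check, and no value below has an error or a p-value. The sex of the mice is not given in the labels, which bears on genes that differ between male and female liver. The table holds only rows that differed by at least 1.5-fold, and of Xist and 4 Y-linked genes looked up, 0 had a row. Rows without a gene symbol could not be searched for these genes, and unlike sex of the pools was not tested.

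In mice the pituitary of males releases growth hormone in well separated pulses, and that of females releases it more continuously. Each pulse activates the transcription factor STAT5B in hepatocytes, which drives male-biased genes and keeps many female-biased genes low, in part through repressors such as BCL6. Several members encode enzymes that act on steroids and foreign compounds, and their levels are a common readout of this hormone pattern in mouse liver.

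The promoters of 4 P450 genes show how alike these genes can be in sequence while their values differ. The windows below run from 250 bases before to 50 bases after the annotated start and come from RefSeq, assembly GRCm38.p6, plus strand. Capitals mark the bases that differ from the partner's window, or face a gap, in a global alignment. Cyp2b9 (chr7:26173159-26173458) and its close paralog Cyp2b13 (chr7:26061245-26061544) were both higher in the PN pool, and their windows differed at 2 of 300 positions, an identity of 99.3%.

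Cyp2b9: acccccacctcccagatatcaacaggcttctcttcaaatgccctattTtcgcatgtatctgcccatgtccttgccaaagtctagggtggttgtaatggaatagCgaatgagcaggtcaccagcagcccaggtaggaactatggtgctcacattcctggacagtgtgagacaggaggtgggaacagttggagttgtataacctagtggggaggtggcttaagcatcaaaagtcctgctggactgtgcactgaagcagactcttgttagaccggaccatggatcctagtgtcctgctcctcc

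Cyp2b13: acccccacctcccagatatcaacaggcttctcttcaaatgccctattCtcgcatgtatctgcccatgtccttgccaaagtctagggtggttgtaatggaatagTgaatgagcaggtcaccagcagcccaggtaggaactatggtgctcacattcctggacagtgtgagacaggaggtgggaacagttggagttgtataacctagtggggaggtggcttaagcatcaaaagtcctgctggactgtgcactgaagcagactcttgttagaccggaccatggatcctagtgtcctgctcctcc

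Cyp2a4 (chr7:26306942-26307241) and Cyp2a5 (chr7:26835089-26835388) went in opposite directions. Their windows were identical at 294 of 301 aligned columns (97.7%), with 5 mismatches and 2 gaps. The gaps lay at the window edges, opposite base 1 of Cyp2a4 and base 299 of Cyp2a5, since the windows are offset by 1 base.

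Cyp2a4: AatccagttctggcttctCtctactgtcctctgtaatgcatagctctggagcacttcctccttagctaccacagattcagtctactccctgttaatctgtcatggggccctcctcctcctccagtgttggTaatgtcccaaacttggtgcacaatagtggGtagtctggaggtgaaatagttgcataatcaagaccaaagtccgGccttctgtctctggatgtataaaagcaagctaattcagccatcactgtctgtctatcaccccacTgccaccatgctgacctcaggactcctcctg

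Cyp2a5: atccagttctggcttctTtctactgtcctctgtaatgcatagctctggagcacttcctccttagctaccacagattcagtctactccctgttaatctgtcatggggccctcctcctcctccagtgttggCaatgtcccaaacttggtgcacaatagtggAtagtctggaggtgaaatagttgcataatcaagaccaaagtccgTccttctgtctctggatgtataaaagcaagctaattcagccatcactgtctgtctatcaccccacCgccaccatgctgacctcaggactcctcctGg

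The members' levels are given on the log2 scale of RMA (robust multi-array average), the authors' normalization of the arrays. The authors had restricted the table to rows differing by at least 1.5-fold, and the smallest difference in it was 0.585. A gene without a row here is therefore not shown to be unchanged. Levels under 3.26, the median higher level of 133 chemosensory receptor genes, were raised to that value as a background before a fold was taken, and the resulting fold is a lower bound against this chosen level. Levels given as a pair are those of the saline pool first and the PN pool second.

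All 7 members were higher in the PN pool, against 50.2% of named genes. At least 2-fold higher were 6 of the 7, against 6.74% of named genes, and at least 4-fold higher were 4 of the 7, against 0.743%. Since the difference helped to choose the members, nothing is read from these counts. The median difference of the members was 2.40 on the log2 scale (5.28-fold). Beside it, the median over all named genes was 0.00 with low levels raised and 0.59 with the deposited values. As the table left out rows differing by less than 1.5-fold, neither median over named genes describes a typical gene of the array. The smallest and the largest member fold, 1.62 and 9.40, were 5.80-fold apart. Because whole liver was measured, more cells of a type and more RNA per cell cannot be told apart.

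**Figure D1:**
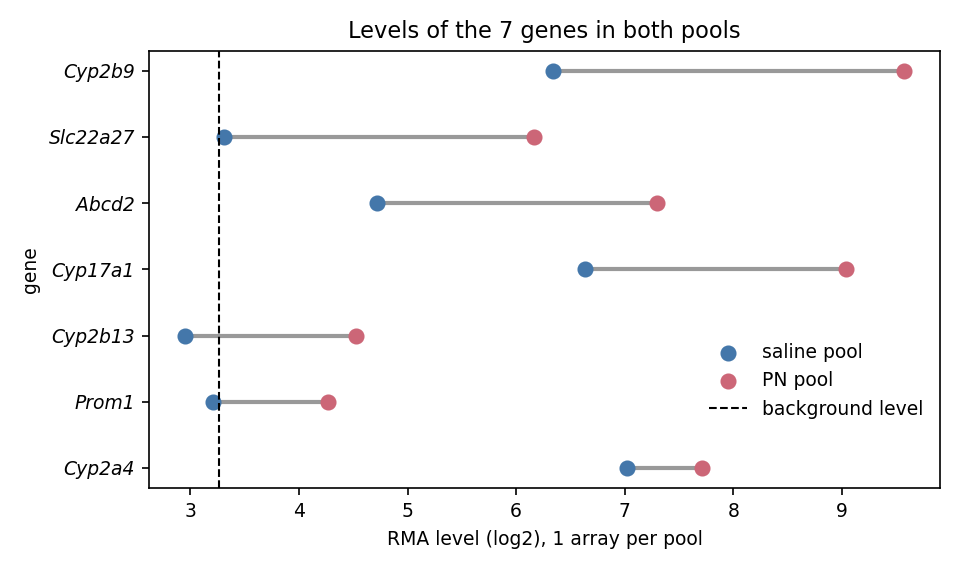
RMA level (log2) of the 7 genes in the saline pool and the PN pool, 1 array each, sorted by difference, with the background level of 3.26 dashed. Every PN point lies to the right of its saline point, and the saline points of Cyp2b13 and Prom1 lie left of the background line.

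Among the P450 members, Cyp2b9 had the widest gap between the pools. Its product is a steroid hydroxylase typical of female mouse liver. Its level was 6.34 with saline and 9.57 with PN, which differ by 3.23, or 9.40-fold. Both levels stood well above background, and the difference took place 2 among 1750 named genes when these were ordered from the highest difference.

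Cyp2b13, the neighbour and closest relative of Cyp2b9, had levels of 2.95 and 4.53. The saline level lay under background, so the PN level was at least 2.41-fold higher, and 2.98-fold higher with the deposited values. Since the Cyp2b13 difference is a lower bound, the difference of Cyp2b9 exceeded it by at most 1.97 on the log2 scale relative to this background. Close paralogs can share target sequence on an array, and the part of this in the Cyp2b13 value was not tested.

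Cyp17a1 encodes a hydroxylase and lyase needed to make androgens and, in many species, cortisol. It is best known from adrenal gland and gonads and is also expressed in mouse liver. Its level was 6.64 with saline and 9.04 with PN, 2.40 apart (5.28-fold). That placed it at rank 8. The gap exceeded that of all P450 members other than Cyp2b9.

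Cyp2a4 had the smallest gap of the members at the main background, and a larger one than Cyp2b13 and Prom1 at the stricter background given below. Its enzyme hydroxylates testosterone and is female-biased in liver. The level was 7.02 with saline and 7.71 with PN, 0.70 apart (1.62-fold). This was close to the 1.5-fold limit of the table and close to the median of 0.73 (1.66-fold) of the named genes that were higher. Its rank was 455.

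The transporter gene Slc22a27 belongs to the organic anion transporter family and is a female-biased gene of mouse liver. The level was 3.31 in the saline pool, only 0.05 above background, and 6.17 in the PN pool. The difference of 2.86 (7.24-fold, rank 3) thus runs from a saline level that can hardly be told from background.

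Abcd2 encodes a transporter of the peroxisome membrane that carries very long chain fatty acids inward for oxidation. Its level was 4.72 with saline and 7.29 with PN. The difference was 2.58 (5.97-fold, rank 7), with both levels above background.

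Prom1 encodes prominin, a glycoprotein of membrane protrusions that also marks bile duct and progenitor cells. Its level was 3.21 in the saline pool, just under background, and 4.27 in the PN pool. The PN level was at least 2.01-fold higher (rank 115), barely over the 2-fold line.

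Of these values, 3 depended on the chosen background. With 3.93, the 75th percentile of the receptor genes, in its place, the fold became at least 1.52 for Cyp2b13, at least 1.27 for Prom1 and at least 4.72 for Slc22a27. The number of members at least 2-fold higher was then 4, namely Cyp2b9, Slc22a27, Abcd2 and Cyp17a1. Those 4 genes were also the members at least 3-fold higher at the main background.

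**Figure D2:**
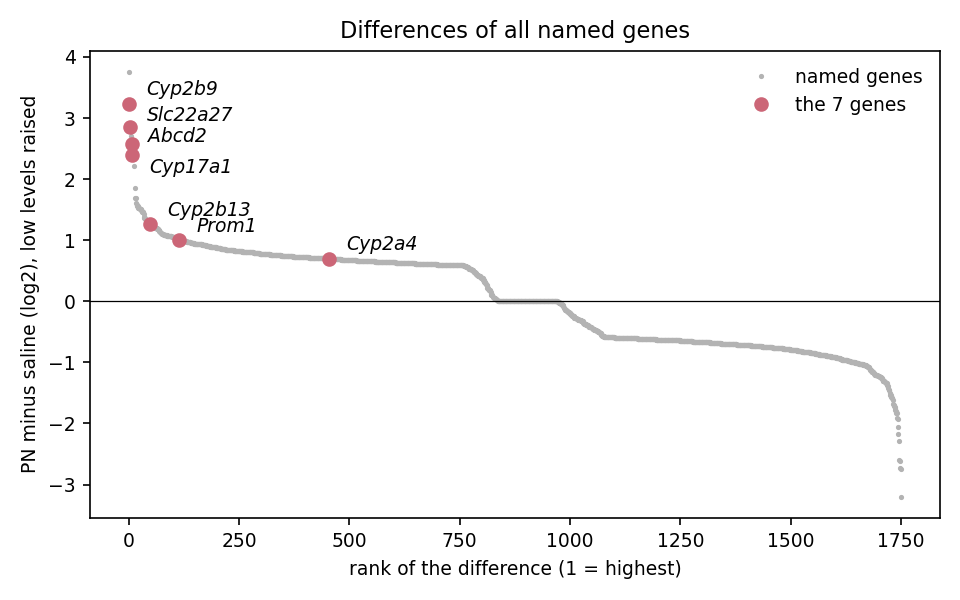
PN minus saline (log2, low levels raised to background) of the 1750 named genes against their rank, with the 7 genes in colour. Cyp2b9, Slc22a27, Abcd2 and Cyp17a1 stand at ranks 2, 3, 7 and 8, and Cyp2a4 lies on the long flat stretch at rank 455; the stretch at 0 holds genes with both levels under background.

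Of the P450 members, 3 lie in a single cluster of Cyp2 genes, where neighbours went different ways. In the RefSeq order of protein-coding genes from Cyp2s1 to Cyp2f2, 7 of 17 genes had a named row. Of these, Cyp2b13, Cyp2b9, Cyp2a4 and Cyp2a22 were higher and Cyp2b10, Cyp2a5 and Cyp2f2 lower. Cyp2b10, next to Cyp2b13 and the classic target of the drug-sensing receptor CAR, had levels of 6.71 and 3.96 (6.72-fold lower). Its difference lay 5.98 below that of Cyp2b9 on the log2 scale. Its promoter window was less alike, at 72.9% identity with that of Cyp2b9.

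Cyp2a5, a coumarin hydroxylase, had levels of 6.06 and 4.13 (3.81-fold lower), so its difference lay 2.63 below that of Cyp2a4. The direction thus separated the near-identical pair shown above. Cyp2a22, with levels of 5.83 and 6.49, was 1.58-fold higher, and its difference lay within 0.04 of that of Cyp2a4, although their windows shared only 57.8% of aligned columns. Cyp2f2, at the end of the cluster, had levels of 9.43 and 8.13 (2.46-fold lower). Rows of such paralogs may pick up one another's RNA, and the probes were not analysed here.

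Slc22a27 lies in a cluster of its own family on another chromosome. From Slc22a19 to Slc22a8, 3 of 7 protein-coding genes had a named row. These 3 were all higher with PN, beside 50.2% of named genes. They include Slc22a27 itself, which was chosen with its difference known, so nothing is read from this count. Slc22a26, the neighbour of Slc22a27, had levels of 4.41 and 5.64 (2.35-fold higher). Slc22a29 had 2.58 and 3.32, both near or under background, which leaves a fold of at least 1.04. The difference of Slc22a27 exceeded that of Slc22a26 by 1.62 on the log2 scale. The promoter window of Slc22a27 was 50.1% identical to that of Slc22a26 and 50.1% to that of Slc22a29.

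**Figure D3:**
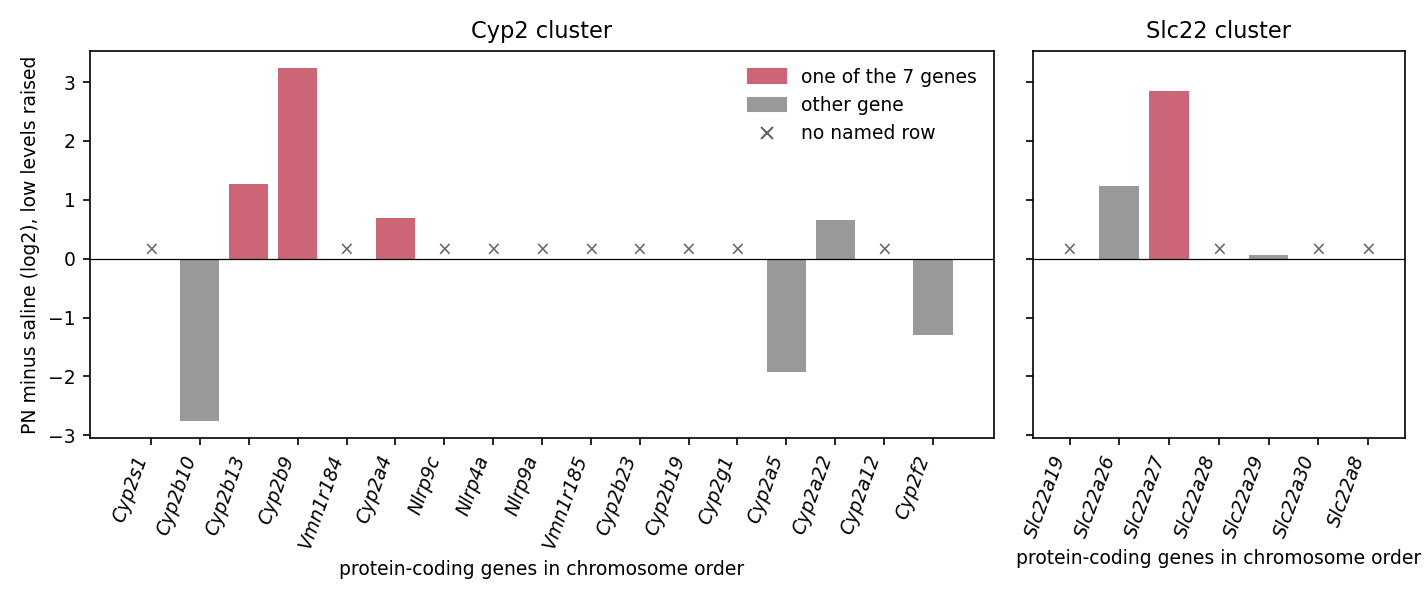
PN minus saline (log2, low levels raised to background) of the protein-coding genes in the Cyp2 and Slc22 clusters, in chromosome order without distances, crosses marking genes with no named row. Cyp2b9 at 3.23 stands beside Cyp2b10 at -2.75 with Cyp2b13 between them, and the 3 bars of the Slc22 cluster are all at or above 0.

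The other 3 members had few neighbours with a value. Among the 3 protein-coding genes on either side of Abcd2 and of Prom1, none had a named row. Around Cyp17a1 only Arl3 did, at 8.56 and 7.95 (1.52-fold lower).

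Promoter windows were listed for 5 members, all but Cyp17a1 and Abcd2, with 6 windows in all, since Prom1 has more than 1 start, and were searched on both strands for a few motifs. The letters TTCNNNGAA, the site read by STAT5 and overlapping that of BCL6, were in 0 of the 6 windows and in 8.30% of all 32851 windows. The same held for the HNF6 letters ATTGAT, with 0 of 6 beside 7.54%. The C/EBP letters TTGCNNAA were in 3 of 6 windows beside 10.8%: at position 71, counted from the window's 5′ end, in both Cyp2b9 and Cyp2b13, and at position 181 in Cyp2a4. Since the first 2 windows are near copies, these are not separate matches. The letters were also in the windows of Cyp2a5 (position 180) and Cyp2b10 (position 193), both lower in the PN pool, and in that of Slc22a29. The neighbour Slc22a26 held the STAT5 and the HNF6 letters.

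The HNF4 letters CAAAGTCCA were in 0 of 6 windows beside 0.475%. Shortened to CAAAGTCC, a choice made after the windows were seen, they were in Cyp2a4 and in its partner Cyp2a5, beside 1.42% of all windows. TATAAA lay at position 223 in Cyp2a4 and 222 in Cyp2a5, beside 13.6% of all windows. Of the 8 matches in the 4 printed windows, 0 covered a base in capitals. A match is only a stretch of letters, and these windows hold no distal sites.

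Few genes in the list of growth hormone signalling, its inhibitors and its liver targets had a row. Of 22 listed, 4 had a value, each of them higher with PN, beside 50.2% of named genes. The count is of unlike genes and is no measure of the pathway's activity. The receptor gene Ghr, the kinase gene Jak2, Stat5b and Igf1 were among the 18 without a named row. Socs2, a feedback inhibitor induced by growth hormone itself, had levels of 5.12 and 6.16 (2.05-fold higher). Socs3, an inhibitor induced mainly by cytokines, had 4.49 and 5.69 (2.29-fold higher). Igfbp1, which binds insulin-like growth factors, had 9.95 and 11.5 (2.88-fold higher). Lepr, the leptin receptor, a cytokine receptor of the same class as the growth hormone receptor, had 4.15 and 6.97 (7.05-fold higher).

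Of 18 regulators of sex-biased or P450 genes, 3 had a value. Onecut1, which encodes the liver-enriched factor HNF6, had levels of 7.50 and 9.05 (2.93-fold higher). Trim24, a coregulator of nuclear receptors, had 6.25 and 7.16 (1.88-fold higher). Foxa2, a pioneer factor of liver genes, had 6.45 and 5.85 (1.51-fold lower). Bcl6, Cux2 and the CAR gene Nr1i3 were among the 15 without a named row.

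A further list held 35 genes female-biased in mouse liver by general knowledge, taken here as repressed by pulsatile growth hormone. That repression was not tested here. Of these genes, 12 had a value and 23 had none. Of the 12, 10 were higher and 2 lower, beside the 50.2% of named genes that were higher. Their median difference was 0.70 (1.63-fold). Sult1e1, an estrogen sulfotransferase, had levels of 2.91 and 7.02 (at least 13.5-fold higher). Slc22a26 came next in size, and Trim24 was also among the largest. Sult2a5 had 4.20 and 3.23 (at least 1.92-fold lower), and Cib3, a calcium-binding protein gene, 6.34 and 5.54 (1.73-fold lower).

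Another list held 38 genes male-biased in mouse liver by general knowledge, taken here as induced by pulses, which was likewise not tested. Of these genes, 23 had a value and 0 were higher, beside the 50.2% of named genes that were higher. Their median difference was -1.23 (2.34-fold lower). Cyp4a12a, a fatty acid hydroxylase of male liver, had the lowest difference at -3.20, followed by the lectin gene Clec2h at -2.61, Cyp4a12b at -2.28 and Selenbp2 at -2.17, and Ugt2b38 had the smallest in size, -0.32, with low levels raised. The lists were drawn up with earlier results of these arrays known, so their directions are not independent support for one another. Some genes are shared between lists: Trim24 is also counted among the regulators, and Cyp2a22, Cyp2c40, Slc22a26 and Slc22a29 also among the families of the members. Of the genes taken as induced by pulses, Cyp2d9 and Cyp2f2 are counted again among the Cyp2 genes, and Hsd3b5 and Hsd17b2 among those of steroid synthesis.

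**Figure D4:**
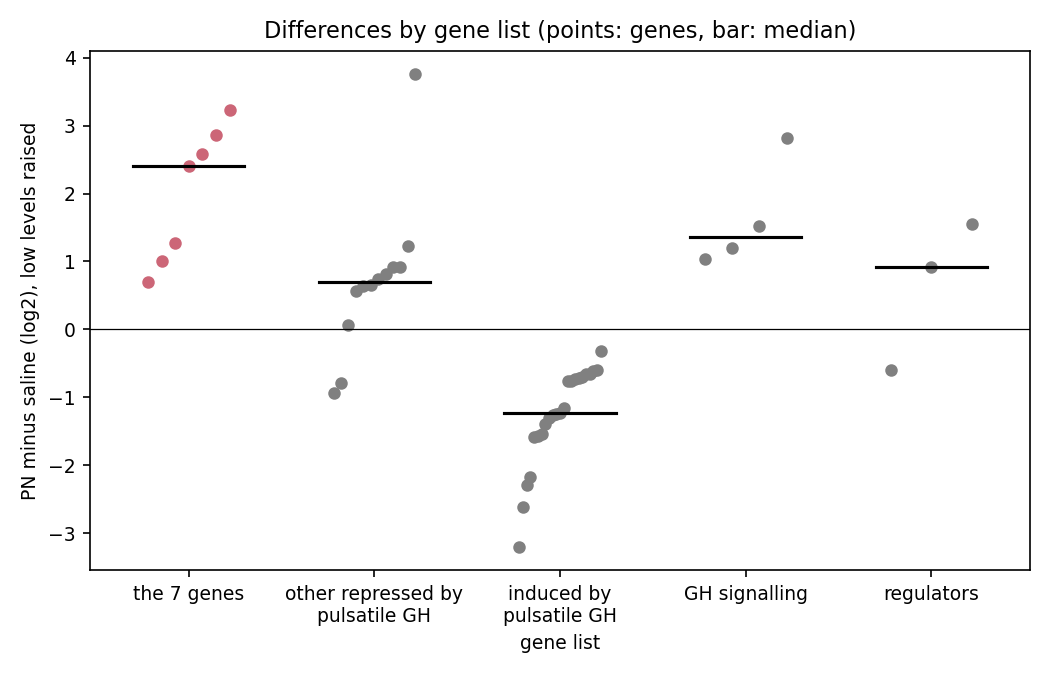
PN minus saline (log2, low levels raised to background) of single genes in the 7 chosen genes and in 4 lists, each point a gene and each bar the list's median. The medians are 2.40 for the 7 genes, 0.70 for other genes listed as repressed by pulsatile growth hormone (GH) and -1.23 for those listed as induced. They are 1.36 for the list of GH signalling, its inhibitors and its liver targets, and 0.91 for the regulators.

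The wider families of the members held genes of both directions. Of 45 other genes in the list of Cyp2 P450s and their electron donors 7 had a value, 2 higher and 5 lower, with a median of -0.75. Besides those of the cluster these were Cyp2c40, with levels of 5.06 and 5.80 (1.68-fold higher), Cyp2d9, with 10.6 and 9.81 (1.69-fold lower), and Cyp2c55. Cyp2c55 averaged 6.11 and 5.40 over rows of opposite direction, so it is uncertain. Of 22 other Slc22 genes 5 had a value, 2 higher and 3 lower. The 2 higher genes were Slc22a26 and Slc22a29 of the cluster, and the 3 outside it were lower: Slc22a4, a carnitine-related transporter, had 4.85 and 3.998 (1.81-fold), the hepatic anion transporter gene Slc22a7 had 6.52 and 5.83 (1.61-fold), and Slc22a2 had 3.71 and 3.12 (at least 1.37-fold).

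Around Cyp17a1, 6 of 25 other genes of steroid synthesis and conversion had a value, 1 higher and 5 lower. Hsd17b7, which also acts in cholesterol synthesis, had levels of 7.27 and 8.03 (1.68-fold higher). Akr1c6, a hydroxysteroid dehydrogenase, had 7.58 and 5.80 (3.44-fold lower), Hsd3b5, a male-biased enzyme of liver, 7.90 and 6.64 (2.39-fold lower) and Hsd17b2 9.68 and 9.07 (1.53-fold lower). Star, which carries cholesterol into mitochondria, had 5.48 and 4.87 (1.53-fold lower), and both levels of Hsd3b6, 2.84 and 2.24, were under background. Of 10 adrenal and gonad markers only the last pair, Star and Hsd3b6, had a row. The part of such tissue in the Cyp17a1 difference was not tested.

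Around Abcd2, 3 of 30 other genes of peroxisomal transport and oxidation had a value. Crat, a carnitine acyltransferase, had 5.81 and 6.47 (1.59-fold higher), and Acot4, an acyl-CoA thioesterase of peroxisomes, 5.62 and 6.28 (1.58-fold higher). Acox3, a peroxisomal acyl-CoA oxidase, had 6.78 and 6.02 (1.69-fold lower). The adipocyte marker Retn, the only one of 8 with a row, had 5.74 and 5.04 (1.62-fold lower).

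Around Prom1, 4 of 19 other bile duct and progenitor genes had a value. Epcam, the only one of 10 bile duct markers with a row, had 4.47 and 3.61 (1.82-fold lower), and Cd24a had 6.39 and 5.75 (1.55-fold lower). Tnfrsf12a, the receptor of the cytokine TWEAK, had 5.17 and 6.07 (1.87-fold higher), and Lgr5, a receptor of R-spondins, 5.17 and 5.82 (1.57-fold higher). The part of bile duct cells in the Prom1 difference was not tested.

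Macrophage markers with a row were higher in the PN pool. Of 11 markers of Kupffer cells and macrophages 6 had a row and 5 had none. All 6 were higher, by 0.62 to 2.36 on the log2 scale, beside 50.2% of named genes. The mean level of the 6 markers was 7.03 with saline and 8.05 with PN. Their part in the members' differences was not tested. Of 10 hepatocyte, 6 endothelial and 6 stellate cell markers none had a named row, so the labelled tissue could not be checked on them.

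Likeness of pattern to the members could hardly be assessed with 2 arrays. The distance between pairs of levels on the log2 scale depends on each probe's own brightness and is given as a description of the rows alone. Predicted genes, RIKEN clones, pseudogenes, small RNA genes and chemosensory receptor genes were left out of the search. A left-out row can therefore lie nearer to a member than the gene named here. Among the 1250 other named genes kept, the row nearest to Abcd2 was that of the macrophage receptor gene Marco, at 0.15. The row nearest to Cyp2a4 was that of Lrrc28, at 0.03, and the row nearest to Cyp17a1 that of the stress gene Gadd45g, at 0.51. Cyp2b9 had Trim43c nearest, at 0.88. For Cyp2b13, Prom1 and Slc22a27, with saline levels at or near background, the nearest rows were those of Catsperg2, Elf3 and Sult1e1.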

How the data were processed

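Liver RNA of the saline and the PN pool was measured on 1 Affymetrix array each. The deposited values are log2 levels, made by the authors with RMA in Affymetrix Expression Console 1.4.0.38, per the submitters' processing notes. The authors kept rows by a 1.5-fold cutoff, per the series' design text. The genome build is not given in the sources used here.

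The platform annotation names exactly 1 gene for 1779 of the 5082 rows, several for 161 and none for 3142. Symbols were updated through the RefSeq gene table of GRCm38.p6 (1766 matched), and rows of a gene were averaged. A difference is the PN level minus the saline level. No test was run, as each group has 1 array, and the number of arrays limits the precision.

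The members, the gene lists and the background level were chosen with earlier results of these data known. Named were all members, list genes with a row in the members' families and pathways, and the 4 largest differences of each other list. For each member the gene nearest in both levels was also named, among the 1250 genes kept for that search. Cib3, Ugt2b38, Cd24a and Arl3 were named after their values were seen. Promoter windows were aligned with Biopython 1.88 (match 1, mismatch -1, gap opening -2, gap extension -0.5). The calculations, in Python 3.11.15, were tested on simulated data without noise, in which 200 of 200 planted differences were recovered. Such a test checks the arithmetic alone.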

Additional observations from a re-analysis of the deposited data

How the results depend on the processing

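Each member's difference was recomputed without a background level, with the 75th percentile of the receptor genes as background, and with the arrays centred on all rows or on the brighter named rows. Of the 28 member values under these 4 alternatives, 25 stayed within 1.5-fold of the value given. Raising a floor cannot turn a direction and centring shifts all genes alike, so the kept directions say nothing about stability. The other 3 values came from the higher background: 0.60 for Cyp2b13, 0.34 for Prom1 and 2.24 for Slc22a27 on the log2 scale. Centring moved the differences by at most 0.02. Counting rows with several symbols added no member. At least 2-fold higher were 6 members without a background level or with centred arrays and 4 with the higher background. A 3-fold limit also left 4. The median difference was 1.83 over the P450 members and 2.58 over the other members, and 2.24 with the higher background. No member had more than 1 row, so no choice between rows could be tried. Saline levels of Cyp2b13, Prom1 and Slc22a27 at or near background limit what their folds can show. No replicate could be left out, and no paired analysis was possible because each group has 1 array.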
